A study of Mus musculus with 3 samples.

Results

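A set of 10 genes known to be induced by interferon gamma, grouped around the chemokine gene Cxcl9, was followed in Ly6Chi monocytes sorted from acutely injured mouse livers. The genes were Cxcl9, Cxcl10, Gbp2, Gbp3, Gbp5, Gbp7, Serpina3g, Irf1, Socs1 and Ifi47, which makes 10 of the 53802 genes in the deposited matrices. They were picked by symbol, with their levels in these same libraries already known. The difference between knockout and control and the joint detection with Cxcl9 are therefore given as a description. Calls and p values printed for members are part of that description and do not test them.

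The knockout group was 1 library, number 4, from LysMDCommd10 mice, in which Cre expressed from the myeloid gene Lyz2 deletes Commd10. The control group was 2 libraries, numbers 1 and 3, from Commd10fl/fl mice, whose floxed gene was left intact. All mice were C57BL/6 males of 8 weeks that had been fasted for 12 h, were injected into the peritoneum with 300 mg/kg acetaminophen, got chow back after 2 h and were sampled 24 h after the drug. The labels do not say how many mice went into a library, so the spread between libraries may be technical. The Cre acts in myeloid cells other than these monocytes too.

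Interferon gamma is released mainly by activated T and NK cells and binds a receptor on macrophages and monocytes. The receptor signals through the kinases JAK1 and JAK2, and its target promoters often carry a gamma-activated site (GAS) or an interferon-stimulated response element (ISRE), to which IRF1 can bind. CXCL9 and CXCL10 bind CXCR3 on activated lymphocytes and draw them into inflamed tissue. Guanylate-binding proteins and Ifi47 (an immunity-related GTPase) act in cell-autonomous defence, IRF1 is a transcription factor, and SOCS1 blocks JAK kinases and so limits the signal.

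The members lay on 5 chromosomes of GRCm38, at the positions given by GENCODE M21. Cxcl9 (chr5:92321347-92328079) and Cxcl10 (chr5:92346638-92348889) were neighbours on the minus strand. The 4 guanylate-binding protein genes formed a block on the plus strand of chromosome 3, in the order Gbp5 (chr3:142493978-142522344), Gbp7 (chr3:142530342-142550149), Gbp3 (chr3:142560026-142573209) and Gbp2 (chr3:142620602-142638008). Ifi47 (chr11:49076587-49096974) and Irf1 (chr11:53770014-53778374) were on the plus strand of chromosome 11, Serpina3g (chr12:104236245-104241939) on the plus strand of chromosome 12 and Socs1 (chr16:10782240-10785536) on the minus strand of chromosome 16. On the same strand, Gm43802 overlaps Gbp7 and Olfr56 overlaps Ifi47, so reads shared with these genes are uncertain. On the opposite strand, Art3 overlaps Cxcl10, Gm17334 overlaps Irf1, Mir6381 overlaps Gbp2 and Gm12188 overlaps Ifi47. Sharing of reads was not tested. Of the 60-base words in the last 500 bases of the longest coding transcript in GENCODE M21, 0.227% for Serpina3g were also found in its relative Serpina3f, and 1.62% for Gbp5 were found in other genes.

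The stretches before the gene starts are shown because 8 of the 10 members hold a GAS or ISRE match within 250 bases, where 11.1% of 27025 genes do. The matches were not used to choose the members. Sequences are RefSeq's, on GRCm38.p6, 5′ to 3′ on the gene's strand and ending at the base before the RefSeq start. That start differs from the GENCODE start given above for Gbp2, Gbp3, Gbp5, Gbp7 and Serpina3g. The Gbp5 stretch lies inside the GENCODE gene. Capitals mark a match to the GAS, searched as TTCNNNGAA, or to the ISRE core, searched on both strands as GAAA, any 2 bases and GAAA again. The GAS letters read the same on both strands. Overlapping matches are run together. Gbp3 and Irf1 have 2 start sites each in the table, of which the first is shown, and Gbp5 has 2 further matches upstream of the stretch shown. Cxcl10 is shown over 250 bases (chr5:92348890-92349139, minus strand). The others are shown over the last 120 bases, at chr5:92328080-92328199 (minus) for Cxcl9, chr3:142620543-142620662 for Gbp2, chr3:142559924-142560043 for Gbp3, chr3:142496814-142496933 for Gbp5, chr3:142530216-142530335 for Gbp7, chr12:104236027-104236146 for Serpina3g, chr11:53769894-53770013 for Irf1 and chr16:10785537-10785656 (minus) for Socs1.
Cxcl9: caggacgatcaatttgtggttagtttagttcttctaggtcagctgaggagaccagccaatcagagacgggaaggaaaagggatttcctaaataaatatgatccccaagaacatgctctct
Cxcl10: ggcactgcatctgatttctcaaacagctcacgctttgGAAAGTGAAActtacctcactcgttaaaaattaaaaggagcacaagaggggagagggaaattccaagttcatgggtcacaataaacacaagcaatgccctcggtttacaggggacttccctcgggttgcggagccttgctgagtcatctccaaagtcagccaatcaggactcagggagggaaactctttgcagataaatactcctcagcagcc
Gbp2: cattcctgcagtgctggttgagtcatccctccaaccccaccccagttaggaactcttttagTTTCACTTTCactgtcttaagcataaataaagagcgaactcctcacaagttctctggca
Gbp3: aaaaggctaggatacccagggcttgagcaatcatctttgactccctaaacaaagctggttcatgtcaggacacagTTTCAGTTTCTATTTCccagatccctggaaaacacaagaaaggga
Gbp5: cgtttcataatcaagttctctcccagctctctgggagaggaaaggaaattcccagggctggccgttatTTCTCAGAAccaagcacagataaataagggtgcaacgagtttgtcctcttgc
Gbp7: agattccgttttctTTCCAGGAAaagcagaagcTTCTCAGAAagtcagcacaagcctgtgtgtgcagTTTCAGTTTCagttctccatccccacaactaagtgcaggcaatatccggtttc
Serpina3g: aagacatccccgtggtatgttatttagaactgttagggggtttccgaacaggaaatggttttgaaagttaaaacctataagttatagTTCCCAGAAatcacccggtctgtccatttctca
Irf1: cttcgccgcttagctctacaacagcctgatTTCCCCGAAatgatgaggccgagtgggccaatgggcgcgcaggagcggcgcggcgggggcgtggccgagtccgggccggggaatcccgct
Socs1: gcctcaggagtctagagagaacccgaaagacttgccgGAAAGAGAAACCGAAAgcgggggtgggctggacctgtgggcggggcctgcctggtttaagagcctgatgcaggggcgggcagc

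Within the 250 bases before a RefSeq start, 4 of the 10 members (Gbp5, Gbp7, Serpina3g and Irf1) held at least 1 GAS match, where 8.13% of 27025 genes did. An ISRE core match was found in 6 of the 10 (Cxcl10, Gbp2, Gbp3, Gbp5, Gbp7 and Socs1), where 3.46% of genes had one. Per start site, the shares were 7.02% and 2.98% of 32851 windows. Each of the 4 guanylate-binding protein genes held an ISRE core, which began 59 bases before the start in Gbp2, 45 and 39 in Gbp3, 165 in Gbp5 and 53 in Gbp7. That of Cxcl10 began 213 bases before its start, and the 2 overlapping ones of Socs1 at 83 and 77. The letters of neither motif were present in the windows of Cxcl9 and Ifi47. Only these letters were searched, so their absence does not show that either gene lacks an interferon gamma element. A match describes letters and does not show binding.

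Each library was a droplet capture of single cells in which transcripts were counted at their 3′ ends by unique molecular identifier (UMI). After filtering, 4457 knockout cells remained, against 4115 and 7449 cells of controls 1 and 3, with medians of 6865 UMIs in the knockout and 8770 and 8160 in the controls. Nearly all carried the marker Lyz2 (99.3% of knockout monocyte-macrophage cells, against 99.9% in both controls), and Ccr2, the receptor that brings monocytes into tissue, was found in 86.7%, against 92.3% and 91.7%. Adgre1, which encodes the macrophage marker F4/80, was found in 41.3% of knockout cells, against 61.6% and 60.5%. Cells gated as T, NK, B, dendritic, neutrophil, Kupffer or endothelial were left out, which kept 4433 knockout cells, against 4076 and 7404 control cells. B cell markers were present in 11.2% of these knockout cells, against 31.7% and 28.3% of control cells, and their part in the results was not tested. Libraries shared 8 barcodes (knockout 4 and control 1), 24 (knockout 4 and control 3) and 26 (the 2 controls). Commd10 itself had 8.62 CPM in the knockout, where CPM are UMIs scaled to a common library total, against 17.2 and 10.3 CPM. A 3′ count may lie outside the deleted part, so this does not check the deletion.

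Cxcl9 was the member with the widest gap between genotypes. Its summed level was 1.17 CPM in knockout 4, against 22.5 and 27.7 CPM in controls 1 and 3 (34 UMIs in the knockout, 905 and 1992 in the controls). The fitted log2 fold change, knockout over control, was -4.42 (SE 0.27), and leaving out either control gave -4.56 or -4.26. Each SE is back-calculated from the fit's test statistic and holds no spread within the knockout group. The other CXCR3 ligand, Cxcl10, did not follow Cxcl9: 88.9 CPM in the knockout, against 95.4 and 106 CPM, a log2 fold change of -0.18 (SE 0.16). The knockout lay close to control 1 for Cxcl10 and far from both controls for its neighbour. In bulk sums of this kind, fewer cells of a type and less RNA per cell cannot be told apart.

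**Figure D1:**
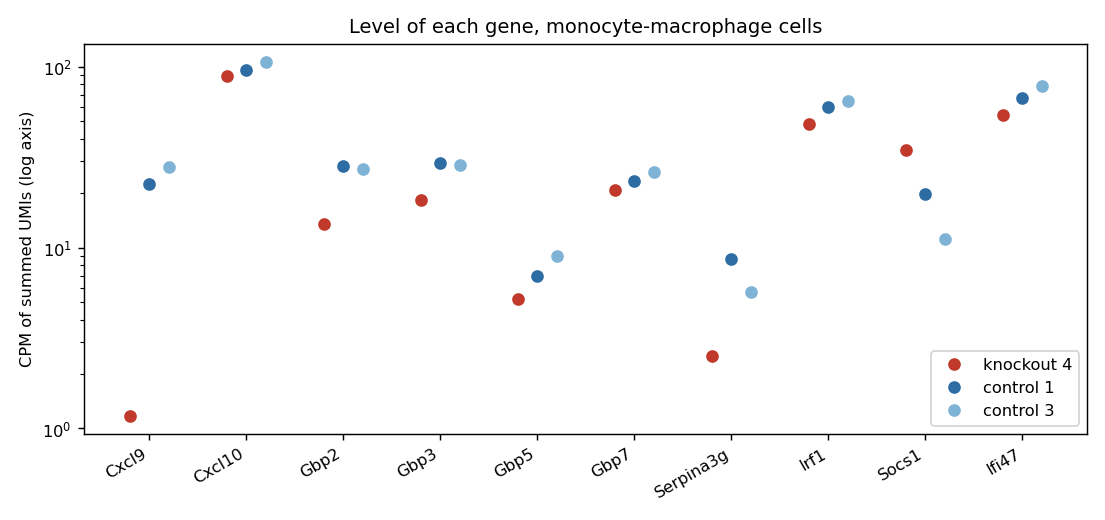
Levels of the 10 genes in CPM (log axis) as summed over monocyte-macrophage cells, 1 point per library, with the knockout left of the 2 controls in each column. For 9 genes the knockout point is the lowest, by the widest margin for Cxcl9 (1.17 CPM, against 22.5 and 27.7), and for Socs1 it is the highest.

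The guanylate-binding protein genes, which code for large GTPases that coat vacuoles holding pathogens, all stood lower in the knockout but by unequal amounts. Gbp2 had 13.6 CPM in the knockout, against 28.4 and 27.3 CPM in the controls, a log2 fold change of -1.04 (SE 0.17). Gbp3 had 18.3 CPM, against 29.2 and 28.6 CPM, a log2 fold change of -0.66 (SE 0.16). Gbp5, which is known to promote inflammasome assembly, had 5.21 CPM, against 7.001 and 8.95 CPM, a log2 fold change of -0.62 (SE 0.26). Gbp7 had 20.7 CPM, against 23.2 and 26.0 CPM, a log2 fold change of -0.25 (SE 0.17). For Gbp2 and Gbp3 the controls lie close together and the knockout apart, while for Gbp7 the gap to control 1 is about as wide as that between the controls.

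Among the remaining members, Serpina3g, an intracellular serine protease inhibitor, had 2.52 CPM in the knockout, against 8.69 and 5.71 CPM, a log2 fold change of -1.51 (SE 0.34). For Serpina3g this was -0.78 without Cxcl9-positive cells and -0.86 without cells of 5 or more Cxcl9 UMIs. Irf1 had 48.3 CPM, against 59.97 and 64.4 CPM, with -0.36 (SE 0.16). Ifi47 had 53.9 CPM, against 67.3 and 77.7 CPM, with -0.43 (SE 0.17). These genes were thus below both controls. Socs1, the feedback inhibitor, ran the other way: 34.4 CPM in the knockout, against 19.8 and 11.1 CPM, a log2 fold change of 1.16 (SE 0.30). Without control 1 it was 1.63 and without control 3 it was 0.79, so the size for Socs1 depends on the control chosen.

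In all, 9 of the 10 members were below both controls and 1 was above both, where 36.8% of the 14794 genes tested were below both and 36.1% above both. edgeR's quasi-likelihood test over all genes called 1 member lower, Cxcl9, and none higher, where 0.0135% of genes were called lower (2 genes) and 0.237% higher (35 genes). At an unadjusted p under 0.05 there were 7 members, where 8.6% of genes passed. DESeq2 called Gbp2 as well as Cxcl9, both lower, where it called 0.149% of genes lower and 0.656% higher. The members' median log2 fold change was -0.52, beside -0.01 over all genes. Because the contrast chose the members, nothing is read from these counts.

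The Cxcl9 UMIs came from few cells. In the knockout, 15 of 4433 cells (0.338%; exact 95% interval 0.190 to 0.557%) had at least 1 Cxcl9 UMI, against 62 of 4076 (1.52%; 1.17 to 1.95%) in control 1 and 169 of 7404 (2.28%; 1.95 to 2.65%) in control 3. These intervals cover counting error only. Cells with 5 or more Cxcl9 UMIs numbered 2 in the knockout, against 26 and 57, and the highest cell had 9 UMIs, against 149 and 152. Thus both the number of positive cells and the amount in the strongest cells were lower in the knockout.

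**Figure D2:**
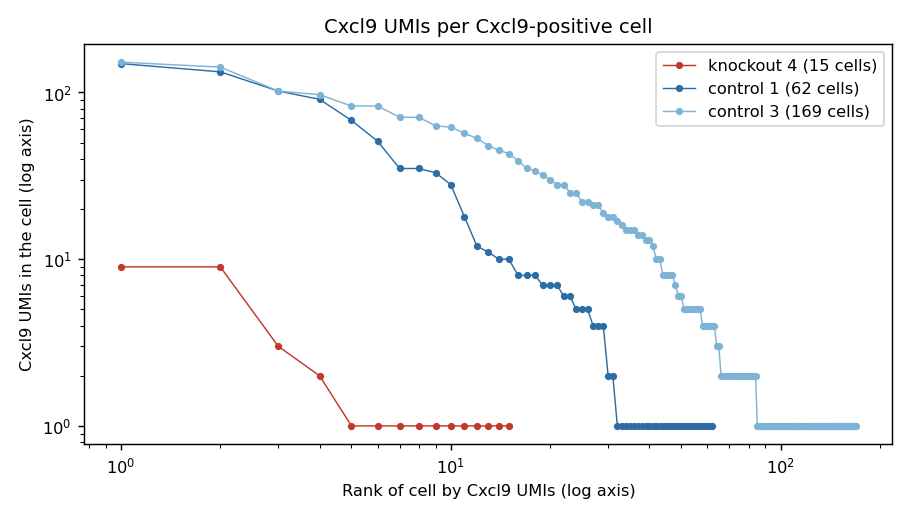
Cxcl9 UMIs in each Cxcl9-positive cell, ranked from the highest, on log axes, with 1 line per library. The knockout line starts at 9 UMIs and ends at 15 cells, while the control lines start at 149 and 152 UMIs and end at 62 and 169 cells.

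Cells with 5 or more Cxcl9 UMIs held 52.9% of the Cxcl9 UMIs of the knockout, against 94.8% and 92.3% of those of the controls. Without those cells the Cxcl9 log2 fold change was -1.61, which follows from choosing the cells to remove by their Cxcl9 count. Cxcl10 was concentrated as well: cells with 5 or more of its UMIs held 86.7% of the total, against 83.4% in both controls. Its top 10 cells held 53.2% of the Cxcl10 UMIs of the knockout, against 36.4% and 17.8% of those of the controls, and its highest cell had 289 UMIs, against 281 and 165, so the knockout sum for Cxcl10 rests on few cells. Gbp3 was spread instead, with 2.07% of its UMIs in such cells, against 2.30% and 4.18%. Cxcl9-positive cells were deeper than negative ones in the controls: their medians were 6970 UMIs in the knockout, against 10108.5 and 9985, beside 6875, against 8774.5 and 8150, in negative cells. More than 2 times the library's median UMI count was found in 0% of knockout positive cells, against 24.2% and 24.3% of control positive cells. At least 1 T or NK cell marker was found in 0% of knockout positive cells, against 8.06% and 2.37% of control positive cells, beside 0.973%, against 1.42% and 1.05%, in negative cells. The part of cell doublets was not tested. Without all cells of such a count the Cxcl9 log2 fold change was -4.41, and edgeR called 0 genes lower (adjusted p 0.0506 for Cxcl9, 1225 genes at an unadjusted p under 0.05).

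To compare shares of cells at equal depth, every cell was thinned at random to 3000 UMIs, which left 3692 knockout cells, against 3570 and 6717 control cells, and left out 741 shallower ones, against 506 and 687. Cxcl9 was then found in 0.217% of knockout cells (0.0936 to 0.427%), against 0.840% (0.568 to 1.20%) and 1.28% (1.03 to 1.58%). Cxcl10 was found in 4.44%, against 7.45% and 8.40%. Gbp2 was found in 2.93%, against 5.49% and 5.51%. The Cxcl10 share was thus lower in the knockout although its summed CPM was close to the controls'.

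Of the other members, Gbp3 was found in 4.98% of thinned knockout cells, against 8.32% and 7.37%. Serpina3g was found in 0.704%, against 1.62% and 0.953%. Ifi47 was found in 12.8%, against 14.96% and 17.8%. Each of these shares was lowest in the knockout, as were the next 3. Irf1 was found in 12.3%, against 14.8% and 16.3%. Gbp7 was found in 5.31%, against 6.19% and 6.83%. Gbp5 was found in 1.57%, against 1.71% and 2.01%. The interval of the knockout overlaps that of control 1 for Gbp5, Gbp7 and Ifi47, and that of control 3 for Gbp5 and Serpina3g. Socs1 alone had its highest share in the knockout, 5.66%, against 3.92% and 2.61%. Unthinned, Cxcl10 was found in 6.56%, against 12.8% and 14.7%, and Socs1 in 9.07%, against 8.64% and 6.00%.

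Free RNA in the droplets can give UMIs to cells that do not make a gene. In 79 T, NK and B gated cells of the 3 libraries, whose median was 2789 UMIs, 0 had Cxcl9 or Cxcl10, which allows a share of up to 3.80% (3 counts of the total). Ifi47 was found in 29 of them, Irf1 in 18 and Serpina3g in 13, and these genes are known to be active in lymphocytes. The Cxcl9 shares in monocytes lie under the limit that 79 cells allow, so background could not be measured finely for Cxcl9.

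To see where the members are used, cells were sorted by sums of marker genes into 8 gated groups, with cutoffs set after the sums were seen. Arg1-high cells made up 15.5% of knockout cells, against 4.98% and 1.59% of controls, and neutrophil-like cells 12.6%, against 6.67% and 2.94%. Ly6Chi monocyte cells made up 28.5%, against 33.9% and 54.4%. The groups thus differed in size between libraries, and also between the controls. Cxcl9 was below both controls in 8 of 8 groups, where the share of all genes below both was 35.7% (patrolling), 36% (MHC class II, with and without C1q), 36.4% (neutrophil-like and Ly6Chi monocyte), 37.4% (lipid-associated) and 39.1% (remaining) in the 7 groups that could be fitted. In the Arg1 group this rests on 1 UMI, against 81 and 1.

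In the Ly6Chi monocyte group Cxcl9 had 1.09 CPM in the knockout, against 19.6 and 24.6 CPM. In MHC class II cells without C1q, it had 4.98 CPM, against 34.3 and 46.9 CPM. In the patrolling group it had 1.25 CPM, against 31.5 and 41.0 CPM. The knockout was at the bottom in each. The knockout level rests on 9 UMIs in 1 of 1264 cells in the Ly6Chi monocyte group and on 3 UMIs in 2 cells in the patrolling group. In MHC class II cells without C1q it rests on 12 UMIs in 4 cells, of which 1 had 5 or more. The share of positive cells was highest in MHC class II cells without C1q in each library, at 1.08% in the knockout, against 2.54% and 3.29%. MHC class II cells with C1q came close, at 1.07%, against 2.34% and 3.00%, and the intervals of the 2 groups overlap in each library. By level, control 1 was highest in the Arg1 group, at 37.6 CPM on 81 UMIs in 4 of 203 cells. Control 3 had 0.716 CPM in that group, on 1 UMI. It was highest in MHC class II cells with C1q, at 58.8 CPM on 277 UMIs in 14 of 466 cells. In the remaining cells the knockout had 0 of 407 cells with Cxcl9, which by the same limit allows up to 0.737%, against 12 of 845 and 9 of 836.

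**Figure D3:**
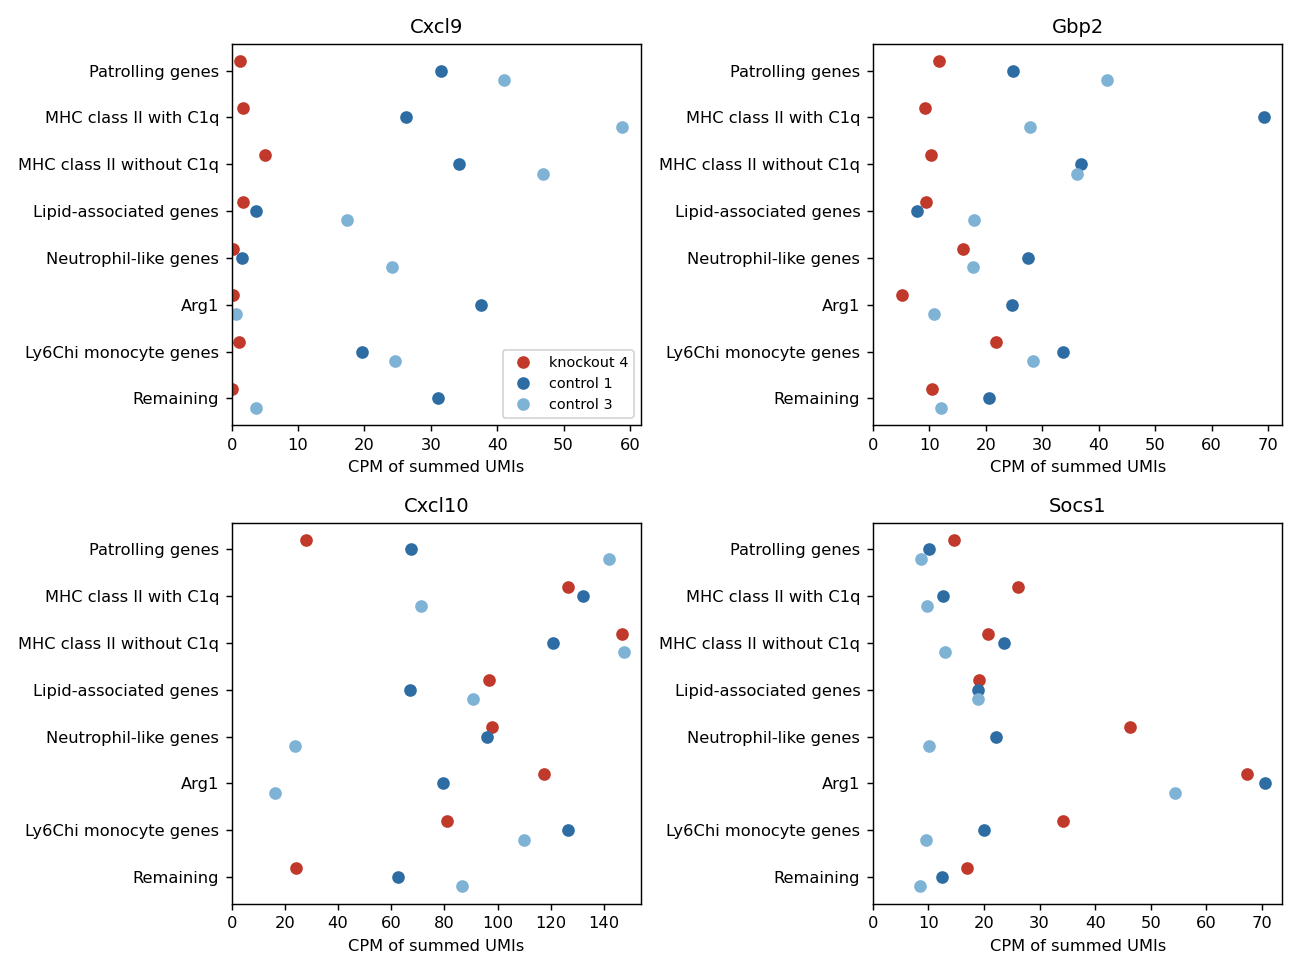
Levels in CPM of 4 genes in each of 8 marker-gated groups (rows), 1 point per library. Cxcl9 is lowest in the knockout in every row, whereas Cxcl10 is highest in the knockout in 3 rows (lipid-associated, neutrophil-like and Arg1), and Socs1 is high in the Arg1 row in all 3 libraries.

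Serpina3g was also below both controls in 8 of 8 groups, and Gbp2 and Gbp3 in 7 of 8. Of all genes, from 35.7% (patrolling) to 39.1% (remaining) were below both in the groups that could be fitted. For Serpina3g the lipid-associated group was nearly equal to control 1, at 2.77 CPM, against 2.84 and 8.83 CPM. Its knockout level rests on 1 UMI in the neutrophil-like group and on 1 UMI in the remaining cells. Gbp2 in MHC class II cells without C1q had 10.4 CPM, against 36.8 and 36.1 CPM, and in MHC class II cells with C1q 9.24 CPM, against 69.3 and 27.8 CPM. In the lipid-associated group its knockout level of 9.36 CPM lay between the controls (7.74 and 18.0 CPM). Cxcl10 split by group. Of all genes, the share above both controls was 33.7% (MHC class II with C1q), 34.9% (patrolling and neutrophil-like), 35.6% (MHC class II without C1q), 36% (Ly6Chi monocyte), 36.3% (lipid-associated) and 37.5% (remaining). Cxcl10 was below both controls in 3 groups, such as the patrolling group with 28.0 CPM, against 67.6 and 142 CPM, and above both in 3, such as the Arg1 group with 118 CPM, against 79.4 and 16.5 CPM. The opposite directions were not tested against each other.

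Socs1 was above both controls in 6 of 8 groups, although in the lipid-associated group the values were nearly equal, at 19.1 CPM, against 18.8 and 19.0 CPM. In the neutrophil-like group it had 46.2 CPM, against 22.1 and 10.0 CPM. Its highest level was in the Arg1 group, 67.3 CPM in the knockout, against 70.6 and 54.4 CPM, and this group was larger in the knockout. When the 8 groups were given equal weight, Socs1 had 29.7 CPM, against 24.1 and 16.9 CPM, a log2 ratio of 0.54, beside 1.16 in the sums. Cxcl9 under equal weight had 1.37 CPM, against 23.5 and 27.0 CPM, a log2 ratio of -4.20. Cxcl10 was then no longer below both controls, with 87.6 CPM, against 95.002 and 85.6 CPM.

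Within the thinned control libraries, cells with Cxcl9 carried the other members more often. Control 1 had 30 Cxcl9-positive and 3540 negative cells, and control 3 had 86 and 6631. Gbp2 was found in 18 of 30 positive cells of control 1 (40.6 to 77.3%), against 5.03% of negative ones, and in 40.7% of those of control 3 (30.2 to 51.8%), against 5.05%. Serpina3g was found in 9 of 30 positive cells, against 1.38% of negative ones, in control 1, and in 20.9%, against 0.694%, in control 3. All 9 other members had a higher share in positive cells of both controls, where 21.4% of 9218 genes found in at least 1% of cells did (8 of the 9 are among these genes, Serpina3g is not), by 21.7 and 30.2 times for Serpina3g down to 1.58 and 2.09 times for Irf1. The intervals of positive and negative cells overlap for Gbp7 and Irf1 in control 1 (for Irf1 9.93 to 42.3%, against 13.6 to 15.99%) and for Socs1 in control 3.

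**Figure D4:**
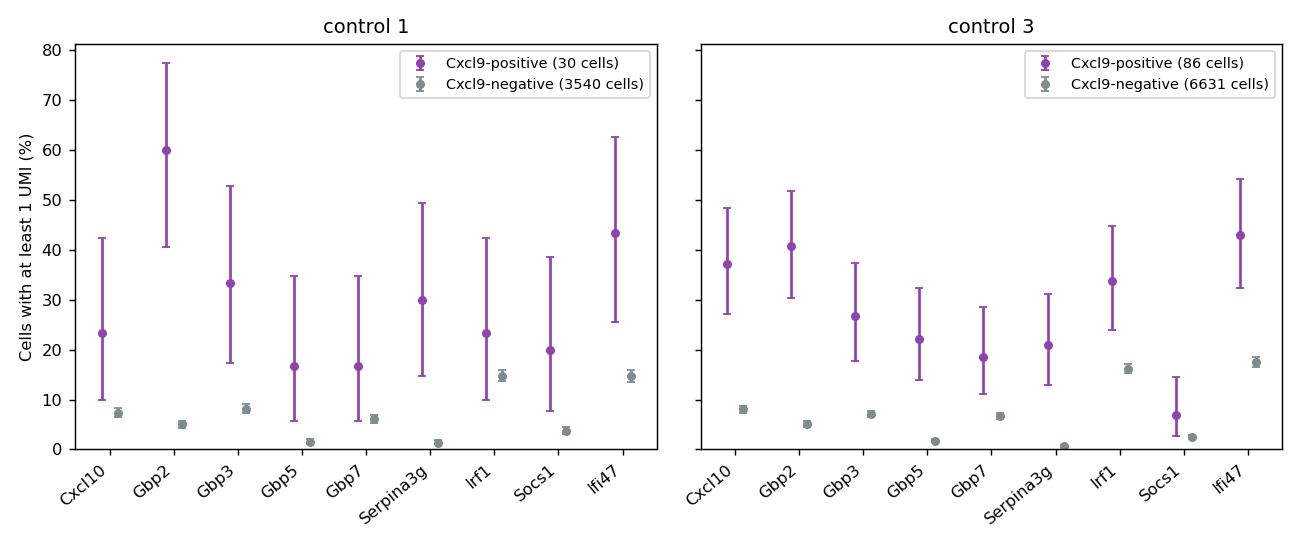
Share of cells with each of the other 9 genes in Cxcl9-positive and Cxcl9-negative cells of the 2 control libraries, thinned to 3000 UMIs, with exact 95% intervals that cover counting error only. In both controls every gene has a higher share in positive cells, with Gbp2 in 18 of 30 and 35 of 86 positive cells, against 5.03% and 5.05% of negative ones.

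In the knockout only 8 thinned cells had Cxcl9, of which 4 had Gbp2, 3 each had Cxcl10, Gbp7, Irf1 and Socs1, 2 each had Gbp3 and Serpina3g, and 1 each had Gbp5 and Ifi47. At that number the intervals are wide, 15.7 to 84.3% for Gbp2, against 2.31 to 3.41% in negative cells. Restricting the controls to MHC class II high cells, 6 of 9 members kept a higher share in both controls, with 9 and 28 positive cells. The exceptions were Gbp5, Gbp7 and Irf1, each at or below the negative share in control 1, where Gbp5 and Gbp7 were found in 0 of the 9 positive cells. Among the 6 that kept it, Cxcl10 and Socs1 rest on 1 of the 9 positive cells of control 1. Socs1 also rests on 1 of the 28 of control 3 (3.57%, against 2.89% of negative ones). The share of all genes that did so was not computed within these cells. Among all 45 pairs of members, joint detection exceeded the product of the 2 shares in 43 in the knockout and in 45 in each control. It did so in 50.2% of all pairs of the 9218 genes in the knockout, against 49.7% and 50.5%, and in 27 of the 28 pairs of the 8 members among those genes in the knockout, against 28 and 28. The pairs share libraries and cells, so they are not independent.

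Cells with at least 3 of the other 9 members made up 2.82% of thinned knockout cells, against 3.92% and 4.29%, and cells with none of the 9 made up 63.7%, against 55.5% and 54.1%. Of Cxcl9-positive cells, 37.5% had at least 3 of the others in the knockout (3 of 8), against 46.7% and 38.4%. In unthinned cells, a high sum of type I interferon genes was found in 13.3% of Cxcl9-positive knockout cells (2 of 15). The control shares were 6.45% (4 of 62) and 16.6% (28 of 169). Among negative cells the shares were 4.60%, against 4.36% and 4.55%. Leaving cells with that high sum out of the thinned cells kept 9 of 9 members at a higher share in positive cells of both controls. The share of all genes that did so was not computed without those cells.

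The genes most like Cxcl9 were ranked in the controls by the ratio of shares in positive and negative cells, over 9218 genes found in at least 1% of cells. The first 2 were the members Gbp5 (10.5 and 12.6 times) and Gbp2 (11.9 and 8.06 times). Acod1, which makes itaconate, came next with 12.0 and 7.65 times, followed by Pla2g16 (6.88 and 5.70 times), Ccnd2, the D-type cyclin gene (4.92 and 6.50 times), and Ly6a, which encodes the surface antigen Sca-1 (12.7 and 4.18 times). Chchd10, Tbc1d2, Phf11a and Cd69, the early activation marker of lymphocytes, completed the 10, on 3 to 8 positive cells each. Serpina3g, Ly6a and Cd69 are also known to be active in lymphocytes, whose markers were more frequent in Cxcl9-positive than in negative control cells, and their part in these ratios was not tested. Gbp3 ranked 11, Cxcl10 19, Socs1 29, Gbp7 30, Ifi47 44 and Irf1 269. Serpina3g was not ranked, since under 1% of control 3 cells had it.

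A wider list of 34 other genes known to respond to interferon gamma, and a list of 24 type I interferon genes, were set beside the members. Of the 29 gamma genes tested, 19 were below both controls and 5 above both, where 36.8% of all genes tested were below both and 36.1% above both. edgeR called 0 of them. At an unadjusted p under 0.05 in edgeR, 8 were lower and 2 higher, where 8.6% of all genes passed in either direction. DESeq2 called Upp1 and Cd274, both higher, where it called 0.656% of all genes higher. The list's median log2 fold change was -0.28, beside -0.01 over all genes. Tgtp1, an immunity-related GTPase gene, had 0 UMIs in the knockout, against 11 and 12. Gbp6 had 3, against 13 and 22. Iigp1, another such GTPase, had 0.586 CPM, against 1.77 and 1.33 CPM, with -1.39 (SE 0.46), and Ccl5, a T cell-attracting chemokine, had 3.45 CPM, against 5.23 and 10.0 CPM, with -1.15 (SE 0.41). Upp1, which encodes uridine phosphorylase, had 11.1 CPM, against 4.09 and 2.67 CPM, with 1.73 (SE 0.29), and Cd274, the gene for PD-L1, which was chosen after its values were seen, had 50.8 CPM, against 28.6 and 22.2 CPM, with 1.00 (SE 0.18).

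**Figure D5:**
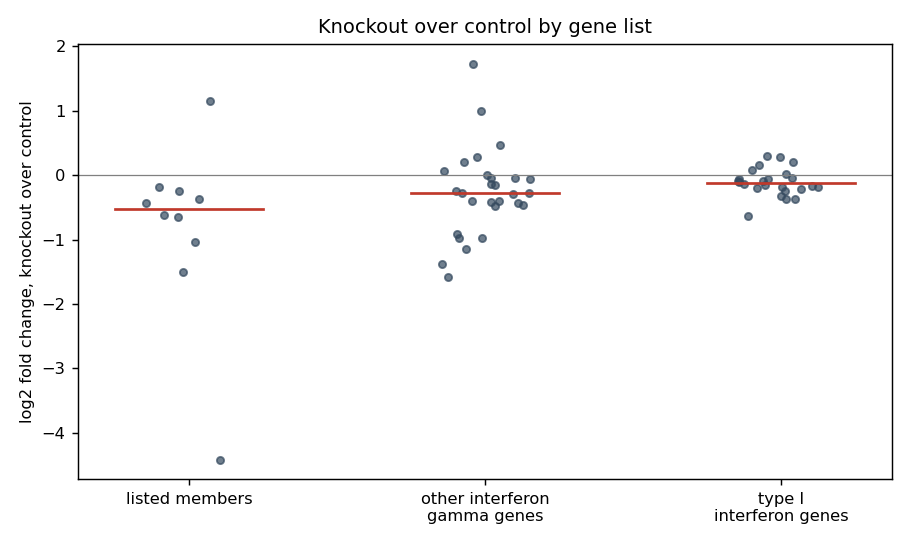
Log2 fold change, knockout over control, of the 10 members, 28 tested other interferon gamma genes and 24 type I interferon genes, 1 point per gene and a line at the median (-0.52, -0.28 and -0.12). Cxcl9 is the point at -4.42, and Tgtp1, with 0 UMIs in the knockout, is not drawn but is counted at its bound in the median.

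None of the 24 type I interferon genes was called by edgeR or DESeq2, and 0 passed an unadjusted p under 0.05. Of these genes 12 were below both controls and 3 above both, where 36.8% of all genes tested were below both and 36.1% above both. The median of the list was -0.12, which was -0.26 without control 1 and -0.01 without control 3. The largest differences were those of Ifit3b (-0.64, SE 0.28), Ifit2 (-0.38, SE 0.24), Mx1 (-0.37, SE 0.19), Cmpk2 (-0.32, SE 0.19) and Oas2 (0.29, SE 0.18). Of the parts of the pathway itself, 10 of 13 were tested, and edgeR and DESeq2 each called 0. In edgeR 3 passed an unadjusted p under 0.05, where 8.6% of all genes did. Jak2, which was chosen after its values were seen, had 54.7 CPM, against 31.6 and 32.2 CPM, with a log2 fold change of 0.78 (SE 0.15).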

How the data were processed

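Single-cell 3′ libraries of sorted Ly6Chi liver monocytes (1 knockout, 2 controls) were analysed from the authors' deposited matrices of raw UMI counts per gene and barcode, made with Cell Ranger 3.0.2 after bcl2fastq on GRCm38, per the submitters' processing notes. Of 53802 gene identifiers, 53620 (99.7%) were found in GENCODE M21. No barcode held fewer than 500 UMIs; how the authors set this is not stated in the labels. Totals were 30302932 UMIs in the knockout and 40092348 and 72867668 UMIs in controls 1 and 3, over 5152 barcodes, and 4814 and 8109.

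Barcodes needed 500 or more detected genes and mitochondrial UMIs of 10% or less. Cells with at least 3 markers of another cell type, summing to 5 or more per 10000 UMIs, were left out. No doublet caller was run. Gated groups used summed markers per 10000 UMIs, with cutoffs of 5 (patrolling, with at least 2 genes), 50 (MHC class II), 10 (C1q), 50 (lipid-associated), 20 (neutrophil-like), 10 (Arg1) and 40 (Ly6Chi monocyte). The share of cells within 20% of a cutoff was at most 17.0%, for the Ly6Chi monocyte sum in control 1. The Arg1 group held under 200 cells in control 3 and was not fitted.

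UMI counts were summed per library and tested, knockout against control, by the two-sided quasi-likelihood method of edgeR 4.0.16 under R 4.3.3 (glmQLFit, glmQLFTest). Low genes were dropped by filterByExpr, libraries were scaled by TMM, and calls needed a Benjamini-Hochberg adjusted p under 0.05. Only 1 degree of freedom was residual, beside 6.48 prior ones, and the common coefficient of biological variation was 15.6%. The test takes the single knockout library to be as variable as the controls. SE were back-calculated as the absolute log2 fold change over the square root of the test's F value. CPM are counts over the TMM-scaled total. DESeq2 1.42.0 was an alternative. The fit and the thinning were tested on simulated data. Thinning used a fixed seed, and intervals are exact (Clopper-Pearson, 95%), covering counting error only. A share of 0 is given with the limit set by 3 counts. Python 3.11.15, numpy 2.4.6, scipy 1.17.1 and pandas 2.3.3 were used.

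The members, lists, tests and alternatives were chosen with earlier results of these data known. Named genes were all members, list genes called over all genes, the 5 of each list with the largest absolute log2 fold change, and the 10 genes most like Cxcl9. Promoter sequences and motif counts came from RefSeq on GRCm38.p6.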

Additional observations from a re-analysis of the deposited data

Results flagged for a closer look

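Ifng transcripts lie outside the comparisons above, since lymphocytes were left out of them. In T and NK gated cells the knockout had 8 Ifng UMIs in 2 of 8 cells, against 3 UMIs in 3 of 11 cells of control 1 and 3 UMIs in 3 of 18 cells of control 3. The Ifng count was thus above that of both controls, on 2 cells.

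Some members were above both controls in one gated group and below both in another, and these differences between groups were not tested. Cxcl10 was above both in 3 groups and below both in 3, Gbp5 above both in 2 and below both in 5, and Gbp7 above both in 1 and below both in 5. For Gbp5 the groups above rest on 9 UMIs, against 10 and 9 (lipid-associated), and 37 UMIs, against 10 and 15 (neutrophil-like).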

How the results depend on the processing

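The count of members below both controls was 9 and lay between 7 and 9 under the alternatives run; the 7 came without Cxcl9-positive cells, where Cxcl9 itself has no value. Because the contrast chose the members, their adjusted p and calls below show only how the fit depends on the processing. They do not test the members. Without control 1 or control 3 the Cxcl9 log2 fold change ranged from -4.56 to -4.26. It was -4.41 without cells of high UMI count (adjusted p 0.0506, call lost), -1.61 without cells of 5 or more Cxcl9 UMIs (adjusted p 0.474, call lost, which follows from removing cells by their Cxcl9 count) and -4.20 with equal weights of gated groups, beside -4.42 as reported. Over all alternatives that gave one, its adjusted p lay between 5.23e-50 and 0.474. The Cxcl9 share of knockout cells was 0.0542% when at least 2 UMIs were asked for, beside 0.217%. The median of the other interferon gamma genes, -0.28, ranged from -0.38 to -0.24 when a control was left out and was -0.33 with library totals. All 117 results of the members other than Cxcl9 kept their direction, and 108 counted as unchanged. The 5 that became calls were Gbp2 under DESeq2, and Gbp2, Gbp3, Serpina3g and Socs1 without the low-count filter. Equal weights of gated groups moved 4 others (Cxcl10, Gbp2, Gbp3 and Socs1) by more than the spread of the controls. Unchanged meant the same side of the threshold, whatever the size, where there was an adjusted p, and otherwise a shift within that spread. These members were not called as reported, so the same side meant staying uncalled. With a control left out, the shift was nearly bound to lie within the spread, since the same controls set both. Without Cxcl9-positive cells the log2 fold change was -0.81 for Gbp2, -0.78 for Serpina3g and -0.02 for Cxcl10. The genes called lower and higher numbered 2 and 35 with edgeR, 22 and 97 with DESeq2, 151 and 287 without the low-count filter, 1 and 11 at up to 20% mitochondrial UMIs, 1 and 19 after thinning, 5 and 32 over all cells, 1 and 27 with library totals, 0 and 12 without cells of high UMI count, and 0 and 27 without Cxcl9-positive cells or without those of 5 or more Cxcl9 UMIs. With library totals 42.6% of genes were below both controls and 30.3% above both. Leaving out Cxcl9-positive cells or those of 5 or more Cxcl9 UMIs, equal weights and leaving out type I interferon-high cells were chosen after seeing the data. No paired analysis was possible because the knockout and control libraries share no replicate number.

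A single knockout library gives no spread within its group, and the few Cxcl9-positive cells, 8 after thinning, limit every share given for it.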

Other observations

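Cxcr3, the receptor gene for CXCL9 and CXCL10, was found in 11 of 4457 knockout cells, against 38 of 4115 and 56 of 7449 control cells. Il12b, whose product drives interferon gamma release, had 1 UMI in the knockout monocyte-macrophage sum, against 3 and 26. Ifngr1, which binds interferon gamma, had 451 CPM, against 535 and 506 CPM, and Ifngr2 had 201 CPM, against 166 and 205 CPM. The median of the pathway parts was -0.24 and turned to 0.05 without control 3.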
